A study of Mus musculus with 18 samples.

Results

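The genes described here encode the factors that start protein synthesis, eIF1 to eIF6, and the eIF4E-binding proteins (4E-BPs) that restrain it. They were taken by gene symbol from a fixed list of 41 names, all of which were found among the 24035 genes of the count files. No threshold on a measured value was applied, but the list was chosen with earlier results of these data known. The neurons came from C57BL/6 mouse embryos whose cortex was electroporated in utero at embryonic day 14 with wild-type MTOR (WT) or with MTOR carrying the substitution C1483Y or L2427P, and the electroporated cells were sorted at embryonic day 18. Each of the 3 genotypes had 3 libraries of ribosome footprints, the mRNA stretches that a ribosome shields from RNase I, and 3 libraries of heat-fragmented mRNA. The sources used here give neither the promoter of the construct nor the number of embryos behind a library. No deletion of the embryos' own Mtor gene is described, so all 3 groups are taken to carry it. The labels do not say that libraries of a group came from separate embryos or litters, so the p-values measure only the spread between these libraries.

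In textbook outline, eIF2 brings the initiator methionine tRNA to the small ribosomal subunit, and eIF2B recharges eIF2 with GTP after each round. eIF3 is the large scaffold that holds the small subunit and the mRNA together. eIF4F, made of the cap-binding protein eIF4E, the scaffold eIF4G and the helicase eIF4A, loads the mRNA, and eIF1, eIF1A and eIF5 control scanning to the start codon. mTOR complex 1 phosphorylates the 4E-BPs, which otherwise hold eIF4E away from eIF4G. In many mRNAs of the translation machinery, sensitivity to mTOR depends on a 5′ terminal oligopyrimidine tract, a C followed by a run of pyrimidines at the very start of the transcript.

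The first bases of 3 of these mRNAs are shown because this tract is the sequence feature through which mTOR is best known to act. At the start sites annotated by RefSeq (GRCm38.p6), a C followed by at least 4 bases that are C or T stood at the first position in 823 of 32851 start windows, which is 2.51%. Of the 41 genes, 33 had a start window, and 2 of them carried the tract. The windows below give 10 bases before the annotated start and 20 from it, in lower case, with the tract in capitals. The window of Eif4a1, whose level was the most even of all these genes, has no such tract and no capitals.
Eif3f: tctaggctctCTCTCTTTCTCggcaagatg
Eif2s3x: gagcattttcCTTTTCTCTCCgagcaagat
Eif4a1: gtaacgtcacgtcgagttgcagagcgccgg
The window of Eif3f lies at chr7:108934405-108934434 on the plus strand, that of Eif2s3x at chrX:94212632-94212661 on the minus strand and that of Eif4a1 at chr11:69672404-69672433 on the minus strand. Each is the start of an annotated transcript, and the start used in these neurons was not measured. A gene without the tract in this table may still carry one at a start that is not listed there.

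One footprint library, C1483Y replicate 3, was left out, because its values were displaced against the gene names where these genes stand. Over 300 consecutive genes from position 6413 its levels correlated with those of the other footprint libraries at r = 0.264 as deposited and at r = 0.838 when shifted by 2 rows, while the other 8 libraries matched best without a shift. The 8 footprint libraries used held 7695442 to 34094913 counts on named genes, and the 9 mRNA libraries held 18627076 to 53283035. WT replicate 3 had the largest of the footprint totals, but each of its values can be divided by 3, so fewer reads may stand behind it. Single libraries lacked many genes: replicate 3 of L2427P mRNA had no reads for 51.6% of the 5000 genes with the highest mean levels. Summed over 7 markers, cortical neuron genes lay at 7449 to 11539 CPM (counts per 1000000 counts on named genes of the library) in footprints and at 4427 to 7432 CPM in mRNA. Progenitor markers summed to 437 to 1099 CPM in footprints and astrocyte markers to 197 to 573 CPM, and in mRNA they reached 465 CPM and, in L2427P replicate 3, 882 CPM. The 4 erythroid markers summed to 0 to 174 CPM in footprints and 0 to 86.4 CPM in mRNA, with the 2 haemoglobin genes among them at 0 throughout. Microglia markers reached 213 CPM in footprints and 253 CPM in mRNA, and oligodendrocyte lineage markers 166 and 109 CPM. Interneuron markers reached 168 and 110 CPM and endothelium markers 58.5 and 72.7 CPM, in the same order. Mtor, the electroporated gene, stood at 3020.5 to 4242 CPM in the WT footprint libraries and at 729.6 to 2881 CPM in those of the mutants. Those groups did not overlap on the CPM scale, and their order under other scalings was not checked. The log2 differences from WT were -0.56 for C1483Y (adjusted p = 0.710, edgeR) and -1.04 for L2427P (adjusted p = 0.107, edgeR), neither of them called. Mtor mRNA overlapped, at 455 to 655 CPM in WT and 281 to 787 CPM in the mutants. Its counts may include reads of the construct.

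Initiation factors took 0.751% to 1.18% of footprint counts and 1.06% to 1.25% of mRNA counts, over the libraries used. Of the 41 genes, 14 reached 1 CPM in all 17 libraries, and these include eIF3 subunits (Eif3a, Eif3c, Eif3d, Eif3h, Eif3m), the eIF4F genes and the eIF2 gamma subunit gene Eif2s3x. At the other end, Eif4ebp1, which encodes 4E-BP1, and Eif3j1, which encodes the loosely attached eIF3j subunit, had no count in any of the 17 libraries. Eif3j2, the near-identical copy of Eif3j1, was also at 0 in all 17. Reads that fit several places are held apart from the genes in these counts, so the zeros of this pair do not show that eIF3j was absent. A count of 0 allows up to 3 counts, which is 0.0563 to 0.390 CPM depending on the library. This limit covers counting error only, and not reads that were held apart. The other 39 genes passed the count filter in every comparison. Dropouts were uneven: 21 of the 41 genes were under 1 CPM in footprint library C1483Y replicate 1 and 16 in mRNA library L2427P replicate 3, against 2 to 10 in each of the other libraries. Levels are per library total and not per transcript length, so they are compared here within a gene and not between genes.

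**Figure D1:**
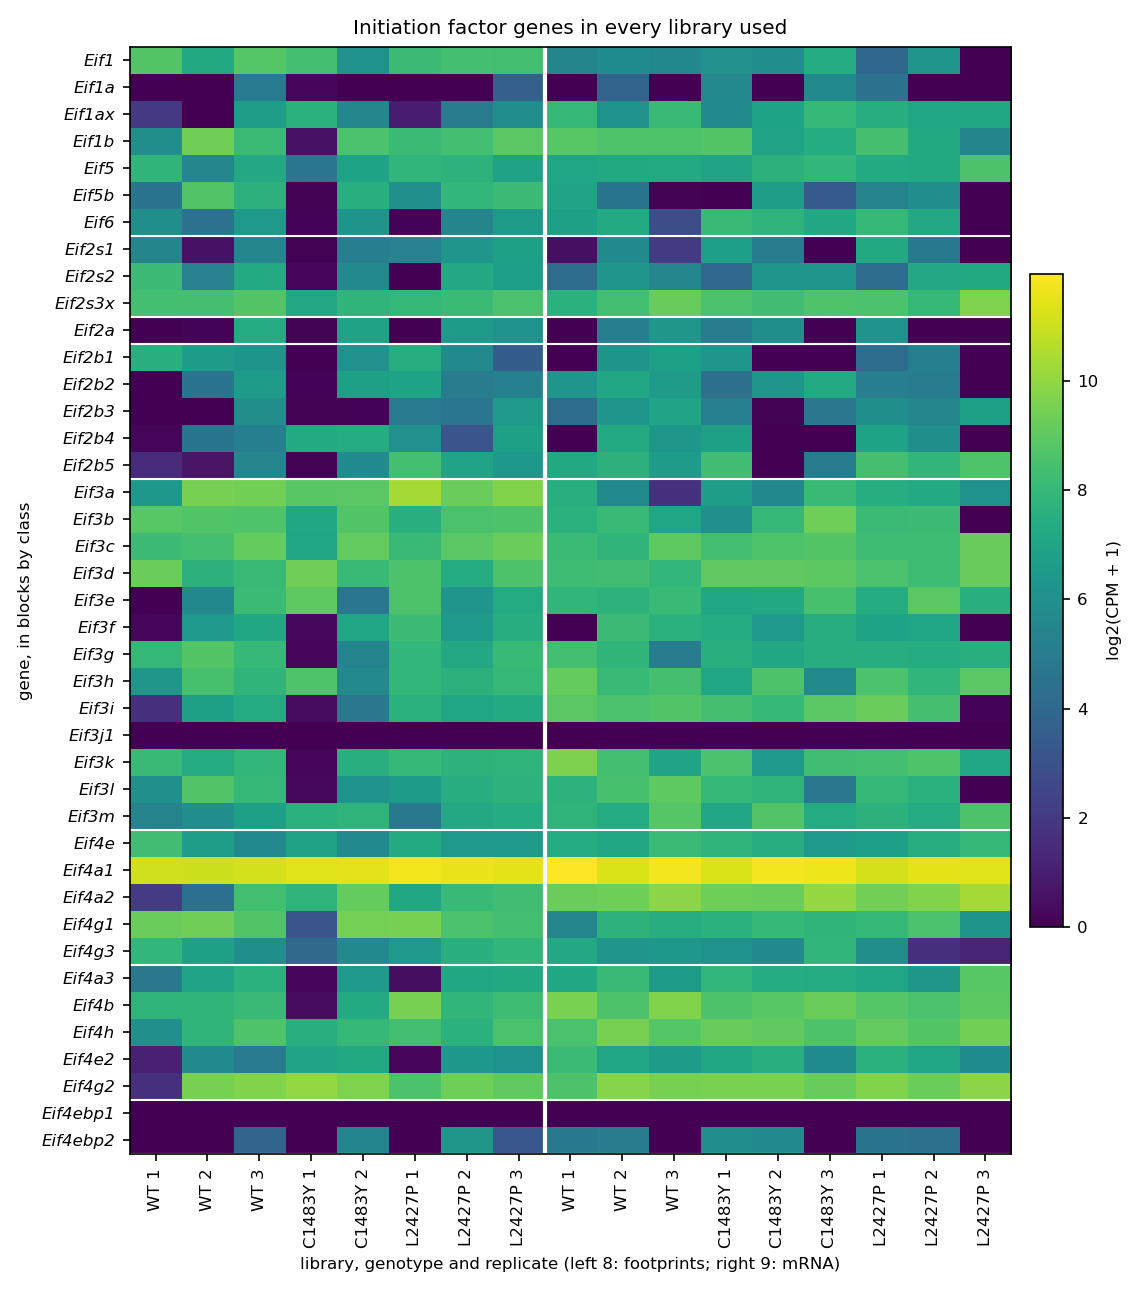
Level of each gene in every library used, as log2(CPM + 1) in colour, with genes in rows grouped by class between white lines and libraries in columns, 8 of footprints on the left and 9 of mRNA on the right. Eif3j1 and Eif4ebp1 are at 0 throughout, Eif4a1 is even across all 17 libraries, and footprint library C1483Y replicate 1 and mRNA library L2427P replicate 3 show the most dark cells.

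The calls among these genes were in the ratio of footprints to mRNA of the same gene, its ribosome load. Averaged over the genotypes, Eif3a stood higher in footprints than in mRNA, and Eif4a2 stood lower. Eif3a encodes the large scaffold subunit of eIF3, and Eif4a2 encodes the eIF4A2 helicase, the paralog of eIF4A1 with high levels in brain. These 2 were the calls among the 39 genes tested, 1 in each direction.

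Eif3a footprints stood at 83.6, 739.9 and 692 CPM in WT, at 458 and 481 CPM in C1483Y and at 1321, 599 and 843 CPM in L2427P. Eif3a mRNA stood at 185, 51.0 and 2.26 CPM in WT, at 101, 47.8 and 274 CPM in C1483Y and at 175, 156 and 71.0 CPM in L2427P. Of the 8 footprint libraries, 7 lay above every mRNA library, and WT replicate 1 lay among the mRNA values. The fitted log2 ratio was 2.59 (SE 0.60, adjusted p = 0.00123 by edgeR's quasi-likelihood test with Benjamini-Hochberg adjustment over 8876 genes). The ratio within a genotype was 2.78 in WT (SE 1.03), 2.05 in C1483Y (SE 1.07) and 2.95 in L2427P (SE 1.04), with adjusted p = 0.423, 0.773 and 0.376 by edgeR, so it was called only in the mean of the genotypes. The call was kept in 24 of 25 other settings, with ratios of 2.36 to 3.28, and was lost when the displaced library was put back as deposited (adjusted p = 0.298, edgeR).

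Eif4a2 went the other way. Its footprints stood at 3.38, 19.6 and 322 CPM in WT, at 216 and 560.3 CPM in C1483Y and at 139, 265 and 310.0 CPM in L2427P. Its mRNA stood at 629, 644 and 946 CPM in WT, at 643, 624 and 1064 CPM in C1483Y and at 690.0, 827 and 1301 CPM in L2427P. Every footprint library was below every mRNA library, which held for no other of the 39 genes. Among all 8876 genes tested, every footprint library was lower in 1.31% and higher in 1.12%. The fitted log2 ratio was -1.68 (SE 0.51, adjusted p = 0.0353, edgeR). Its direction was the same in all 25 other settings, from -2.75 to -1.42, but the call was kept in only 13 of them. Leaving out C1483Y replicate 1 of the footprints gave -1.42 (adjusted p = 0.249, edgeR), and leaving out any of 9 other libraries, of both kinds and all 3 genotypes, also ended the call. Without the filter on low counts (adjusted p = 0.139, edgeR) or with the displaced library it was lost too. Eif4a1 and Eif4a2 are similar in sequence, and alignments that were not unique are held apart from the genes in a summary value. That value was 21.9% to 29.5% of all deposited counts in the footprint libraries used, where C1483Y replicate 1 gives none. In the mRNA libraries it was 49.9% to 77.5%. How many of these reads came from Eif4a1 or Eif4a2 was not measured.

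Against the background of all genes, these counts are small. Of all genes tested, 1.67% were called higher in footprints and 1.13% lower, and the 2 called genes are 2.56% of the 39 in each direction. At an unadjusted p under 0.05, 6 of the 39 genes (15.4%) and 14.1% of all genes differed. The 4 that passed only without adjustment were Eif1 and Eif4g1, with more footprints, and Eif3i and Eif4b, with fewer. DESeq2 called 4 of the 39 genes (10.3%), namely Eif1, Eif3a, Eif3i and Eif4a2, where it called 18.2% of all genes.

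Eif1, the gatekeeper of start codon choice, had 428, 153 and 452 CPM of footprints in WT, 339 and 68.6 CPM in C1483Y and 292, 330.0 and 322 CPM in L2427P. Its mRNA was at 44.0, 56.2 and 46.6 CPM in WT, at 66.4, 57.8 and 171 CPM in C1483Y and at 15.1, 76.0 and 0 CPM in L2427P. In 6 of 8 footprint libraries Eif1 lay above every mRNA library, and the log2 ratio was 2.61 (SE 1.01, adjusted p = 0.182, edgeR). Eif4g1, the main eIF4G scaffold, also lay above every mRNA library in 6 of 8 footprint libraries, but it lay at 7.93 CPM in C1483Y replicate 1, below every mRNA library. Its ratio was 1.38 (SE 0.61, adjusted p = 0.269, edgeR).

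Eif3i, a WD-repeat subunit of eIF3, ranged from 0.338 to 196 CPM in footprints (median 124) and from 0.0954 to 605 CPM in mRNA (median 370.4). Its 1 low mRNA library was L2427P replicate 3, and the ratio was -2.52 (SE 0.87, adjusted p = 0.102, edgeR). Without that library it was -2.74 (adjusted p = 0.00135, edgeR), and 3 of the 39 genes were then called, with 4.01% of all genes. With each assay scaled on its own it was -2.76 (adjusted p = 0.0465, edgeR), with 3 of the 39 and 2.68% of all genes called. Eif4b, which stimulates the eIF4A helicase, ranged from 0.295 to 724 CPM in footprints (median 229) and from 365 to 845 CPM in mRNA (median 463), and 7 of 8 footprint libraries lay below every mRNA library. Its ratio was -1.16 (SE 0.58, adjusted p = 0.345, edgeR).

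The ratios are given by complex next, and differences between members of a complex were not tested. Within eIF3, whose subunits sit in a single particle, the 12 tested genes had log2 ratios from -2.52 for Eif3i to 2.59 for Eif3a, with 4 above 0, a median of -0.24 and a median standard error of 0.81, against a median of -0.32 over all genes. Within eIF4F the range ran from -1.68 for Eif4a2 to 1.38 for Eif4g1, with a median of 0.03 and a median standard error of 0.61. The 3 subunit genes of eIF2 (Eif2s1, Eif2s2 and Eif2s3x) lay between -0.26 and 0.39, with a median of -0.11. Eif2a encodes eIF2A, a separate protein that is not a subunit of eIF2, and its ratio was 0.89 (SE 1.86). Over all genes tested, 43.1% of the ratios were above 0. The 5 genes of eIF4 paralogs and cofactors (Eif4a3, Eif4b, Eif4h, Eif4e2 and Eif4g2) ran from -1.16 to -0.02, all below 0. Their median was -1.04, and none was called. The median over the other settings stayed between -1.47 and -0.70 in this last class, between -0.83 and -0.07 in eIF3 and between -0.19 and 0.21 in eIF4F. In eIF2 it ran from -2.09 to 0.58. The ratio has no absolute zero: the median of all genes moved by -0.24 when each assay was scaled on its own and by 0.15 with DESeq2's size factors. Eif3a was at 2.36 and 2.71 and Eif4a2 at -1.93 and -1.64 under these scalings, on the same sides of the median.

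**Figure D2:**
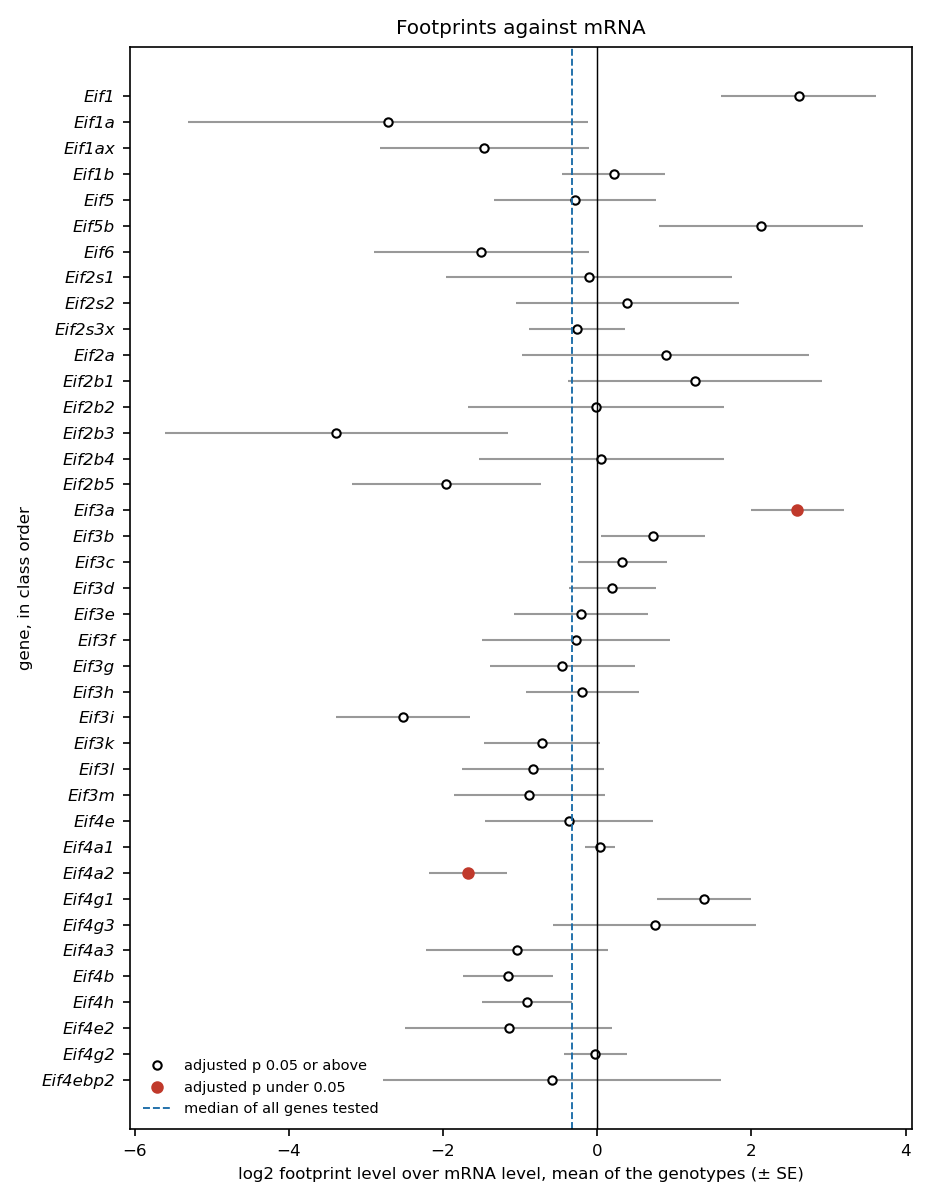
Log2 of the footprint level over the mRNA level for the 39 tested genes, averaged over the genotypes and drawn with the standard error of the fit, in class order; filled points passed an adjusted p of 0.05 (edgeR) and the dashed line is the median of all genes at -0.32. Eif3a at 2.59 and Eif4a2 at -1.68 are the filled points. The subunits of eIF3 spread from -2.52 to 2.59, while an eIF2B gene reaches -3.38 and a start codon factor 2.61.

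Within single genotypes none of the 39 genes was called for its ratio by edgeR, where 0.665% of all genes were called in WT, 0.259% in C1483Y and 0.518% in L2427P. At an unadjusted p under 0.05 there were 3 genes in WT (7.82% of all genes), 2 in C1483Y (5.25%) and 2 in L2427P (5.59%). The WT genes were Eif4a2 (-2.68), Eif3a (2.78) and Eif4g1 (2.12). The C1483Y genes were Eif3i (-4.49) and Eif4b (-2.42), both near 0 in footprint replicate 1 of that genotype, and the L2427P genes were Eif3a (2.95) and Eif1 (3.50). DESeq2 called 0 genes in WT (8.71% of all genes), 1 in C1483Y (12.2%), which was Eif2b3 at -7.89, and 0 in L2427P (4.13%).

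Between genotypes none of the 39 genes passed the threshold, in mRNA, in footprints or in translational efficiency, the change of the ratio between genotypes. By edgeR 0% of all genes were called in 8 of these 9 comparisons, and 0.0105% in mRNA of L2427P against C1483Y, which was 1 gene and not an initiation factor. DESeq2 called far more of all genes, but 1 of the 39, Eif2b3 in footprints of L2427P against C1483Y, and 0 in the other 8 comparisons. Its shares over all genes were, for mRNA, 1.8% in C1483Y against WT, 3.01% in L2427P against WT and 5.25% in L2427P against C1483Y. In the same order they were 7.79%, 2.79% and 4.89% for footprints and 9.07%, 6.1% and 9.86% for translational efficiency. At an unadjusted p under 0.05, edgeR gave for mRNA 0 of the 39 genes in C1483Y against WT (1.59% of all genes), 1 in L2427P against WT (2.42%) and 0 in L2427P against C1483Y (3.72%). For footprints it gave 1 (4.4%), 0 (3.76%) and 2 (1.27%) in the same order. For translational efficiency it gave 0 (3.76%), 1 (4.22%) and 0 (4.18%). The median standard error over the 39 genes was 1.24 on the log2 scale in mRNA of both mutants against WT and 1.62 to 1.91 in footprints, so changes of a few-fold in a typical gene were not detectable with these libraries.

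Eif4a1, the main helicase of eIF4F, was the gene measured most evenly, and the standard error of its ratio was 0.19. Its footprints stood at 2211, 2113 and 2251 CPM in WT, at 2634 and 2723 CPM in C1483Y and at 3387, 3104 and 2856 CPM in L2427P. On the CPM scale the 3 genotypes did not overlap, in the order WT, C1483Y, L2427P, but the order depended on the scaling. With TMM factors WT replicate 1 stood at 2794 CPM, above both C1483Y libraries, and L2427P replicate 3 lay at 2606 CPM, so the genotypes overlapped. With DESeq2's size factors WT replicate 1 was the highest of all at 4103 CPM. The fitted log2 difference of L2427P from WT was 0.38 (SE 0.24, adjusted p = 0.916, edgeR), and 0.03 with DESeq2's size factors.

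Eif4a1 mRNA did not have that order. It stood at 4009, 2534 and 3469.9 CPM in WT, at 2543, 3466 and 3269 CPM in C1483Y and at 2386, 2885 and 2710.2 CPM in L2427P, and the genotypes overlapped. The log2 difference of L2427P from WT was -0.54 (SE 0.24, unadjusted p = 0.0240, adjusted p = 1.00, edgeR). The translational efficiency of Eif4a1 in L2427P against WT was 0.96 (SE 0.45, unadjusted p = 0.0322, adjusted p = 1.00, edgeR), where the median of all genes stood at 0.67. With DESeq2's size factors it was 0.57, with the median at 0.44. The mRNA difference of L2427P from C1483Y was -0.36 (SE 0.24, adjusted p = 1.00, edgeR), and -0.12 without mRNA L2427P replicate 3.

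**Figure D3:**
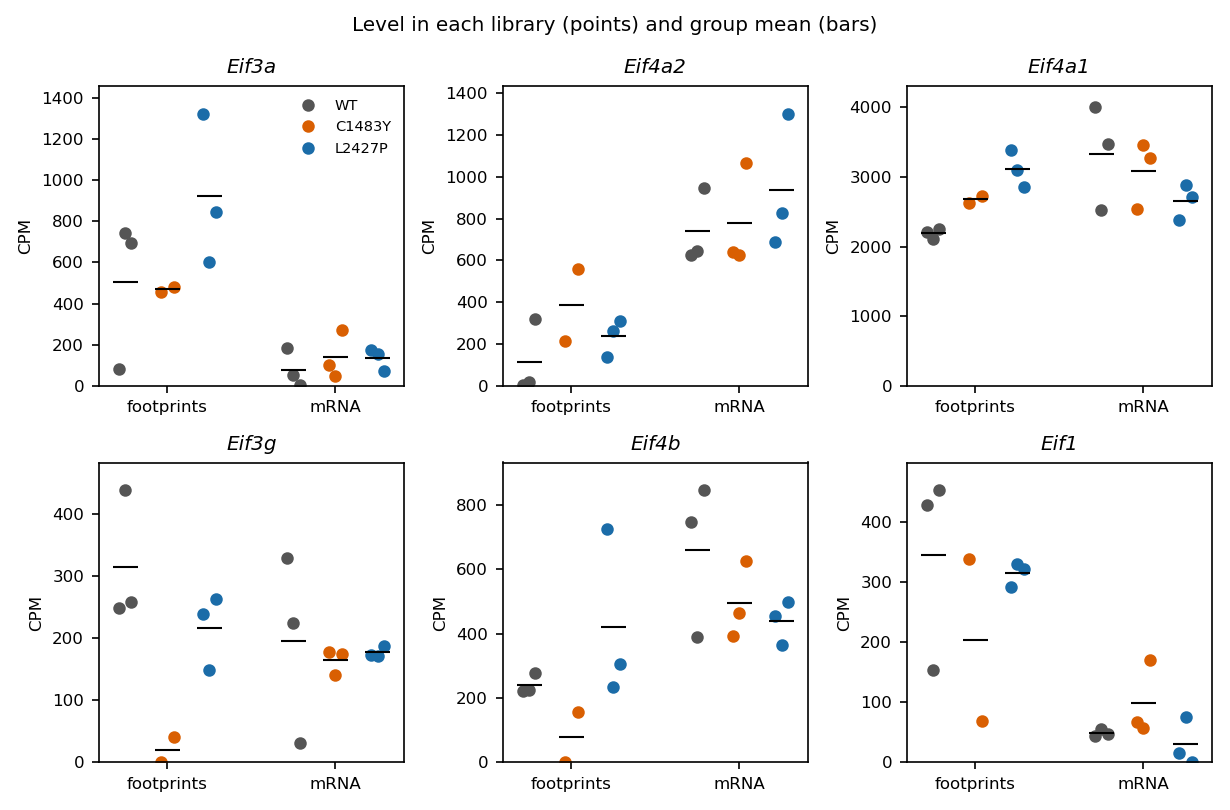
Level in CPM (linear axes from 0) of Eif3a, Eif4a2, Eif4a1, Eif3g, Eif4b and Eif1 in each footprint and mRNA library, with 1 point per library, colours for the genotype and bars at group means; C1483Y has 2 footprint libraries. Eif3a and Eif1 sit higher in footprints, Eif4a2 sits lower, and the separation of the genotypes in Eif4a1 footprints was not kept under TMM or DESeq2 scaling.

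Eif3g and Eif4b gave the largest footprint differences at an unadjusted p under 0.05, and both rest on C1483Y. Eif3g, an RNA-binding subunit of eIF3, had footprints at 248, 438 and 258 CPM in WT, at 0.127 and 41.4 CPM in C1483Y and at 239, 149 and 264 CPM in L2427P. Both C1483Y libraries lay below all others, under every scaling used. The log2 difference was -3.98 for C1483Y against WT (SE 1.60, unadjusted p = 0.0127, adjusted p = 0.710, edgeR) and 3.33 for L2427P against C1483Y (SE 1.54, adjusted p = 0.925, edgeR). Eif3g mRNA, in contrast, lay at 31.7 to 329 CPM in WT and at 140.3 to 187 CPM in the mutants, with overlapping groups. The translational efficiency of Eif3g in C1483Y against WT was -3.65 (SE 2.48), which was not called.

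Eif4b footprints stood at 223, 224 and 279 CPM in WT, at 0.295 and 157 CPM in C1483Y and at 724, 235 and 306 CPM in L2427P. The C1483Y libraries were again the lowest, and L2427P overlapped with WT. The log2 difference of L2427P from C1483Y was 2.39 (SE 1.20, unadjusted p = 0.0472, adjusted p = 0.925, edgeR), and that of translational efficiency was 2.67 (SE 1.46). Against WT, the translational efficiency of Eif4b in L2427P was 1.53 (SE 1.34, adjusted p = 1.00, edgeR), and 0.88 without footprint L2427P replicate 1. In both genes the lowest value is that of C1483Y replicate 1, the footprint library in which 21 of the 41 genes were under 1 CPM. Without that library the difference of C1483Y from WT was -3.13 for Eif3g and the difference of L2427P from C1483Y was 2.33 for Eif3g and 1.42 for Eif4b, none of them called. Without the other one, C1483Y replicate 2, edgeR called 6 genes in footprints of C1483Y against WT, all lower: Eif1b, Eif3g, Eif3k, Eif4b, Eif4g1 and Eif5b. It called 5 of them (all but Eif5b) in L2427P against C1483Y, and Eif4b for translational efficiency in both comparisons. In these fits 1.3% and 1.06% of all genes were called for footprints and 0.335% and 0.292% for translational efficiency, and the median log2 difference of all genes in footprints stood at -4.48 and 8.13. In either case the 1 remaining C1483Y library was assumed to vary like those of the other groups.

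The other genes with the lowest unadjusted p in a genotype comparison were not called either. Eif4a2 in C1483Y against WT had a log2 difference of 1.90 in footprints (SE 1.24, adjusted p = 0.710, edgeR) and of 1.93 in translational efficiency (SE 1.20). Without footprint WT replicate 3, which holds the one high WT value, they were 5.01 and 5.10. Eif3a footprints in L2427P against WT differed by 0.87 (SE 0.55, adjusted p = 0.935, edgeR), and by 0.33 without WT replicate 1. Eif3i in translational efficiency of L2427P against C1483Y was at 3.57 (SE 2.11, adjusted p = 1.00, edgeR). It was at 2.50 without footprint C1483Y replicate 1 and at 8.79 without C1483Y replicate 2.

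Genes whose groups did not overlap on the CPM scale were also counted, without a test. C1483Y has 2 footprint libraries, and a group of 2 separates from another more easily than a group of 3. The shares are therefore set beside those of all genes and not compared between genotype comparisons. In footprints, 16 of the 39 genes (41%) separated L2427P from C1483Y, where 18.7% of all genes did, and 12 of the 16 were higher in L2427P. For C1483Y against WT it was 9 genes (23.1%) against 11.5% of all genes, and 5 of the 9 were lower. For L2427P against WT it was 3 genes (7.69%) against 8.62%. Initiation factors are abundant, and among genes at a mean of at least 100 CPM in footprints the shares were 22.3%, 18% and 9.07% over all genes and 41.7%, 25% and 8.33% over the 24 initiation factors there, in the same order. In mRNA the counts were 2 genes for C1483Y against WT (7.82% of all genes), 4 for L2427P against WT (8.42%) and 1 for L2427P against C1483Y (6.87%). With TMM scaling the footprint counts were 15, 9 and 3, and with DESeq2's size factors 14, 10 and 3, in the order L2427P against C1483Y, C1483Y against WT and L2427P against WT. Not all were the same genes: 15, 7 and 2 of the TMM genes were among those on the CPM scale. In footprint library C1483Y replicate 1, 21 of the 41 genes were under 1 CPM. Among the 12 genes higher in L2427P than in C1483Y, Eif2b3, Eif2b5, Eif2s1, Eif3g, Eif3i, Eif3k, Eif3l and Eif4b were under 1 CPM there. Eif2s3x, Eif3a, Eif4a1 and Eif4g3 were not. The fitted footprint difference of L2427P from C1483Y was above 0 in 60.9% of all genes and in 29 of the 39.

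Levels were also summed over the genes of a complex. Footprints summed over the 13 eIF3 genes gave 3053 ± 779 CPM for WT (SD, n = 3), 2486 ± 31.5 CPM for the 2 libraries of C1483Y (SD) and 3534 ± 629 CPM for L2427P (SD, n = 3). The eIF3 mRNA sums were 3376 ± 377, 3106 ± 421 and 3063 ± 385 CPM (SD, n = 3 each). WT overlapped with both mutants in both assays. The 2 footprint sums of C1483Y (2508 and 2463 CPM) lay below all 3 of L2427P (2809 to 3932 CPM). This order holds on the CPM scale and was not checked under other scalings. In C1483Y replicate 1 the sum had almost no part from Eif3f, Eif3g, Eif3i, Eif3k and Eif3l, each under 1 CPM.

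The 5 eIF4F genes summed to 3373, 3026 and 3114 CPM of footprints in WT, to 2992 and 4083 CPM in C1483Y and to 4491, 4037 and 3826 CPM in L2427P. The L2427P libraries were all above the WT libraries on this scale, with Eif4a1 making up most of the sum. With TMM factors the WT libraries spread from 2796 to 4264 and the L2427P libraries from 3491 to 4467 CPM, so they overlapped. The eIF4F mRNA sums were 4521 ± 794 CPM in WT, 4379 ± 625 CPM in C1483Y and 4028 ± 469 CPM in L2427P (SD, n = 3 each). The 3 eIF2 subunit genes summed in footprints to 563 ± 155 CPM for WT (SD, n = 3), 229 ± 116 CPM for the 2 libraries of C1483Y (SD) and 463 ± 155 CPM for L2427P (SD, n = 3), and mRNA sums were 432 ± 204, 463 ± 39.9 and 645 ± 278 CPM (SD, n = 3 each). The footprint sums of C1483Y (147 and 311 CPM) lay below those of WT (385 to 663 CPM), and the other groups overlapped. Other scalings were not checked for eIF2, and Eif2s1 and Eif2s2 were under 1 CPM in C1483Y replicate 1.

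**Figure D4:**
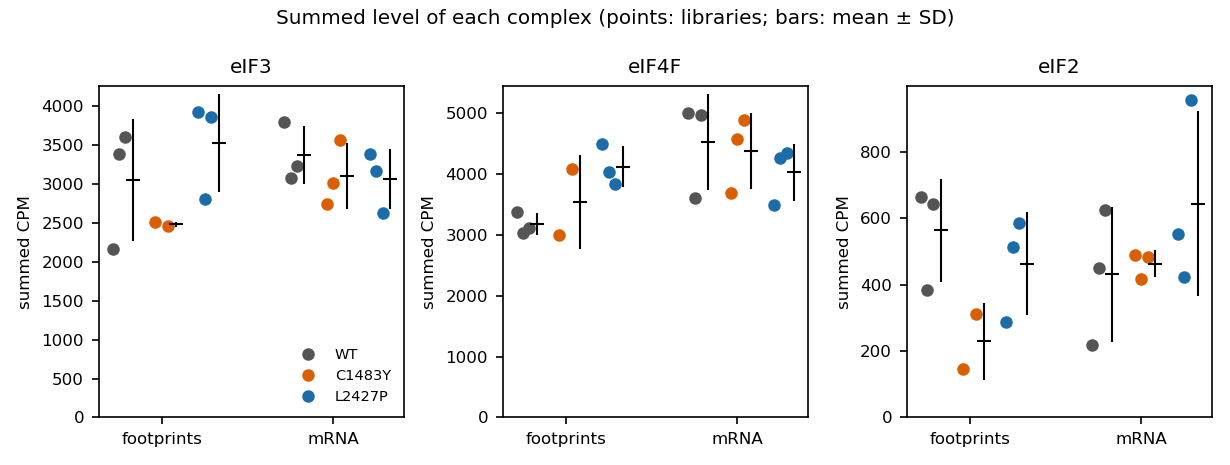
Summed CPM (linear axes from 0) of the 13 eIF3, 5 eIF4F and 3 eIF2 genes in each library, with points for libraries and bars for the mean ± SD of each group, footprints on the left of each panel and mRNA on the right. The eIF4F footprint sums of L2427P (3826 to 4491 CPM) sit above those of WT (3026 to 3373 CPM), an order not kept with TMM scaling.

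The fitted medians of the classes are given beside those of all genes. In footprints of C1483Y against WT the eIF3, eIF4F and eIF2 medians were -0.16, -0.78 and -1.01 on the log2 scale, against -0.16 over all genes. In footprints of L2427P against WT they were 0.07, 0.01 and -0.41, against 0.32. In translational efficiency of L2427P against WT they were 0.46, 0.96 and -0.42, against 0.67. Over the other settings the eIF4F median ran from -1.15 to 0.40 in the first of these comparisons and from -0.59 to 0.47 in the second, where that of eIF3 ran from -0.20 to 0.20, so these 3 changed sign. None of these classes held a called gene in these comparisons.

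In mRNA of C1483Y against WT the medians were -0.31 for eIF3, -0.05 for eIF4F and 0.09 for eIF2, against -0.05 over all genes. The eIF4F median ran from -0.11 to 0.07 over the other settings and the eIF2 median from -0.31 to 0.67, both with a change of sign. In mRNA of L2427P against WT they were -0.35, -0.50 and 0.80, against -0.28. There the eIF3 median ran from -0.57 to -0.08, that of eIF4F from -0.67 to -0.15 and that of eIF2 from -0.13 to 1.39. By edgeR, the eIF3 genes with the lowest unadjusted p in mRNA of C1483Y against WT were Eif3h (-1.02, SE 0.77) and Eif3d (0.78, SE 0.65). Eif3d, the subunit with its own cap-binding activity, stood at 306, 317 and 245 CPM in WT and at 536, 536 and 493 CPM in C1483Y, without overlap, and at 373, 299.7 and 588 CPM in L2427P. Eif3h stood at 567, 266 and 344 CPM in WT and at 132, 395 and 51.0 CPM in C1483Y, with overlap. Both had an adjusted p of 1.00 (edgeR), and the Eif3h difference was -2.08 without C1483Y replicate 2 and -0.55 without C1483Y replicate 3.

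The genes with a pyrimidine tract at the annotated start did not separate the genotypes in a shared way. Eif2s3x, the X-linked gamma subunit of eIF2 that binds the initiator tRNA, had footprints at 330.3, 346 and 437 CPM in WT, at 147 and 229.7 CPM in C1483Y and at 250.2, 285 and 371 CPM in L2427P. C1483Y was lowest, and L2427P overlapped with WT on the CPM scale but lay below it under TMM and DESeq2 scaling. The log2 differences from WT were -1.01 (SE 1.04) for C1483Y and -0.41 (SE 0.90) for L2427P, with adjusted p = 0.952 and 1.00 by edgeR. Its mRNA ranged from 199 to 802 CPM over the 9 libraries, with overlapping genotypes. Eif3f, an eIF3 subunit of the JAB/MPN domain family, had footprints at 0.130, 87.0 and 139 CPM in WT, at 0.211 and 135 CPM in C1483Y and at 293, 87.0 and 178 CPM in L2427P, with overlap throughout and values near 0 in WT replicate 1 and C1483Y replicate 1.

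Among the start codon factors, Eif1b, the paralog of Eif1, was the clearest in mRNA. It stood at 469, 407 and 401 CPM in WT, at 438, 127 and 172 CPM in C1483Y and at 343, 152 and 43.5 CPM in L2427P. All L2427P libraries lay below WT, and the log2 difference was -1.26 (SE 0.79, adjusted p = 1.00, edgeR). It was -0.74 without L2427P replicate 3, the mRNA library with the most genes at 0, and -2.34 without L2427P replicate 1. Eif1b footprints ranged from 59.9 to 672 CPM in WT, from 0.506 to 383 CPM in C1483Y and from 288 to 486 CPM in L2427P, with overlap. Eif5, the GTPase activator of eIF2, was present in every library, at 25.2 to 234 CPM in footprints and 124 to 389 CPM in mRNA. Eif5b, which joins the subunits, had a median of 193 CPM in footprints and 23.9 CPM in mRNA, with mRNA under 1 CPM in 3 of 9 libraries. Eif6, which keeps the large subunit apart until it is mature, had medians of 52.0 and 150.1 CPM.

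eIF1A is encoded by Eif1a and Eif1ax. Eif1a was at 0 in 5 of 8 footprint libraries and 5 of 9 mRNA libraries and did not exceed 52.3 CPM, whereas Eif1ax had mRNA in every library, at 51.8 to 271 CPM, and footprints at 0 to 197 CPM. The 2 genes are close copies, so reads that fit both may have been held apart as not unique and counted for neither.

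The eIF2B genes were the sparsest complex. Eif2b1 to Eif2b5 had median footprint levels of 12.3 to 69.8 CPM and median mRNA levels of 17.8 to 209 CPM, and each was under 1 CPM in at least 1 library of each kind. Eif2b5, the catalytic subunit, stood at 1.69, 0.571 and 45.5 CPM in WT footprints, at 0.0422 and 53.5 CPM in C1483Y and at 334, 126 and 82.8 CPM in L2427P. L2427P lay above both other genotypes, under all 3 scalings. The log2 difference from WT was 3.61 (SE 2.78, adjusted p = 1.00, edgeR) and was not called. Eif2b5 mRNA was also higher in L2427P than in WT, at 347, 237 and 407 against 154, 209 and 94.9 CPM, without overlap. Its log2 difference was 0.85 (SE 1.13) and that from C1483Y 1.16 (SE 1.14), neither of them called. The C1483Y libraries stood at 318, 0 and 31.3 CPM, and the difference from C1483Y was 4.50 without replicate 1 and 0.55 without replicate 2. The eIF2B medians were 1.34 in footprints and 2.03 in translational efficiency for L2427P against WT, with 4 and 5 of 5 genes above 0, and median standard errors of 2.78 and 3.88. Over all genes the medians were 0.32 and 0.67, with 57.7% and 62.9% of genes above 0, and 23 and 28 of the 39 genes were above 0.

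Of the cap-binding side, Eif4e was detected in all 17 libraries, with footprints at 311, 104 and 52.7 CPM in WT, at 117 and 52.3 CPM in C1483Y and at 161, 89.3 and 89.3 CPM in L2427P, and mRNA at 85.4 to 287 CPM. The genotypes overlapped in both. Its repressor 4E-BP2, the main 4E-BP of brain, was uneven: Eif4ebp2 footprints were at 0 in 4 of 8 libraries and at 8.47 to 80.2 CPM in the others, and its mRNA was at 0 in 3 of 9 libraries and at 20.1 to 57.8 CPM in the others. The mRNA zeros fell on replicate 3 of each genotype. Eif4ebp2 in L2427P against WT had a log2 difference of 2.80 in footprints (SE 3.82) and -0.45 in mRNA (SE 3.81), neither of them called, and Eif4ebp1, at 0 throughout, was not tested. Eif4e2, the cap-binding homologue that acts as a repressor, was higher in both C1483Y footprint libraries (125 and 151 CPM) than in WT (1.17 to 53.7 CPM) and L2427P (0.149 to 82.2 CPM), with a log2 difference of 2.37 from WT (SE 3.09, adjusted p = 1.00, edgeR).

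Eif4g2, an eIF4G-like protein that lacks the eIF4E site, was present in every library. Its footprints lay at 385 to 1039 CPM in 7 libraries and at 2.21 CPM in WT replicate 1, and its mRNA at 398 to 943 CPM, with a log2 ratio of -0.02 (SE 0.41). Its L2427P footprints (385 to 632 CPM) lay below both C1483Y libraries (810.1 and 1039 CPM). Eif4g3 mRNA lay below WT in all L2427P libraries, at 59.4, 2.25 and 1.34 against 147, 75.9 and 82.7 CPM, while its footprints in L2427P (84.1 to 233 CPM) overlapped with WT (61.4 to 246 CPM). Its mRNA difference of L2427P from WT was -2.19 and was not called.

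Outside the 41 genes, a list of 29 other genes of the initiation step was read in the same fits. It holds the eIF2 kinases and phosphatase subunits, regulators of eIF4F such as Larp1, Mknk2, Pdcd4 and Rps6kb1, and further factors such as Abce1, Ddx3x and Eif5a. Of them 23 to 25 were tested, and by edgeR 0 rose and 0 fell in any of the 13 comparisons. At an unadjusted p under 0.05 there were 5 of the 23 tested for the ratio of footprints to mRNA over the genotypes, where 14.1% of all genes were. Eif2ak4 alone was under it in mRNA and in translational efficiency of L2427P against C1483Y and in the ratio within L2427P, and no listed gene was in the other 9 comparisons. Of these, Pabpc1, the poly(A)-binding protein that bridges to eIF4G, had a log2 ratio of 2.79 (SE 1.19), Ddx3x, a helicase of structured leaders, one of 1.24 (SE 0.56), and the eIF2 kinase gene Eif2ak4 one of 4.51 (SE 2.26). The phosphatase subunit gene Ppp1r15a had -6.31 (SE 3.14) and Eif2s3y, the Y-linked copy of Eif2s3x, -5.74 (SE 2.82), and the adjusted p of the 5 genes was 0.245 to 0.345 by edgeR. Eif4ebp3, the third 4E-BP, was above 1 CPM only in footprint library L2427P replicate 1 (131 CPM) and mRNA library C1483Y replicate 1 (4.32 CPM).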

How the data were processed

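The authors deposited counts per gene symbol for 17 libraries, and for footprint library C1483Y replicate 3 estimated counts, 165 of them not whole. Tools listed in the submitters' processing notes are HTSeq (no version), TopHat2 2.1.1 and Bowtie 1.1.2, and the build is mm10. The sources used here give no annotation, strand setting or role of each tool. From each file 27 names turned into dates by a spreadsheet and 5 summary values were left out.

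CPM is a count over the library's total on named genes. Genes were kept by filterByExpr (minimum count 10), scaled by TMM and tested with edgeR 4.0.16 in R 4.3.3 (robust quasi-likelihood test) with Benjamini-Hochberg adjustment over all genes at 0.05. There were 9 libraries in the mRNA fit, 8 in the footprint fit and 17 in the joint fit, which gave translational efficiency (assay by genotype) and footprints against mRNA. The standard error is the log2 difference over the square root of F. The script was run on simulated counts with 1 spread set for all genes, which checks the code and not what these libraries could detect. DESeq2 1.42.0, other scalings, no filter, blocks and each library left out were tried. Genes given full statistics were those past the threshold for footprints against mRNA and the 2 with the lowest unadjusted p in each genotype comparison. Others were chosen after their values were seen. The members and lists were chosen with earlier results of these data known.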

Additional observations from a re-analysis of the deposited data

Results flagged for a closer look

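In the footprint library that was left out, C1483Y replicate 3, the row named Eif3j1 held 96.4 CPM and the row named Eif4ebp1 held 41.9 CPM, while both genes were at 0 in the other 17 libraries. The values of that library are displaced by 2 rows over the stretch tested around position 6413, so these are not read as levels of Eif3j1 or Eif4ebp1. Groups of 2 or 3 libraries were not tested for single outlying libraries.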

How the results depend on the processing

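None of the 20 single-gene results reversed under any setting run, while some medians of classes changed sign, as printed beside them. Of 362 single-gene values over 20 results and the other settings, 345 kept their direction and their side of the threshold, 13 lost a call (12 of Eif4a2 and 1 of Eif3a) and 4 gained one. The 4 gains came without RPF C1483Y replicate 2: Eif3g at -11.2 and 10.4 in footprints of C1483Y against WT and L2427P against C1483Y, and Eif4b at 10.2 in footprints and 10.6 in translational efficiency of L2427P against C1483Y. Counts of called genes moved as follows, and the cause was not tested. DESeq2 called 4 genes for footprints against mRNA over the genotypes (2 by edgeR), 1 for the same in C1483Y (0) and 1 for footprints of L2427P against C1483Y (0), beside 18.2%, 12.2% and 4.89% of all genes. Scaling each assay on its own gave 3 for the first of these. The next 2 counts are given without the share of all genes called and are not read as a result about these genes. For footprints against mRNA over the genotypes, no filter on low counts left 1 and the displaced library as deposited left 0. Leaving out single libraries gave 1 to 5 genes there, 0 to 2 in WT alone and 0 to 2 in C1483Y alone. It gave 0 to 6 in footprints of C1483Y against WT, 0 to 5 in L2427P against C1483Y and 0 to 1 in translational efficiency of each of these comparisons. The upper ends came without RPF C1483Y replicate 2, except in WT alone, where they came without mRNA L2427P replicate 3. The fit without RPF C1483Y replicate 2 leaves 1 footprint library of C1483Y. Its counts for footprints against mRNA, and those in WT alone, are given without the share of all genes called. These and all other counts here that stand without such a share are therefore not read as an excess over all genes. Deviations of same-numbered libraries from their group means correlated at no more than 0.0657. Libraries of a group correlated with each other at only 0.253 to 0.747, so such deviations cannot show whether replicate numbers pair the libraries. The replicate block gave 2 genes for footprints against mRNA over the genotypes and 0 elsewhere, and pairing footprint and mRNA libraries by number gave 1 in WT. The shares of all genes called under these settings are likewise not given. The scaled levels behind the counts of groups that do not overlap were added after the data were seen. Zeros of single genes did not follow depth throughout: Eif2b4 mRNA had 0 counts in WT replicate 1 (50100226 in all) and 6621 in WT replicate 2 (42378859).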
